A study of Homo sapiens with 32 samples.

Results

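The clustered protocadherin genes are the protein-coding GENCODE genes of chromosome 5 whose symbols begin with PCDHA, PCDHB or PCDHG followed by a member name. The rule uses symbol and position and no measured value. There were 53 of them among 20033 protein-coding genes of chromosomes 1 to 22, X and Y, with 15 in the alpha cluster, 16 in the beta cluster and 22 in the gamma cluster. U-DNA-Seq maps uracil in genomic DNA by sequencing fragments pulled down by the ΔUNG sensor, a form of the glycosylase UNG that binds uracil without cutting it and carries a FLAG tag, beside the input DNA. The data used here are 15 region files of single libraries, in which every region has a log2 ratio of enriched to input coverage above a threshold that the authors set for that library. The value of a gene, exon or span is its covered share, the percent of its bases that lie inside regions.

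All cells except K562 were HCT116, a human colorectal carcinoma line that lacks mismatch repair (MMR). WT cells received neither drug nor transgene. NT_UGI cells carried UGI, a protein that blocks UNG, which was brought in with EGFP by a retrovirus and expressed stably in sorted cells, and received no drug. 5FdUR_UGI and RTX_UGI cells carried the same UGI and were exposed for 48 h to 5-fluoro-2'-deoxyuridine (5FdUR), at 20 µM, and to raltitrexed (RTX), at 100 nM, respectively, both of which act on thymidylate synthesis. The ending MMR marks the same treatments in cells made repair proficient by an added chromosome 3. Each of the 7 HCT116 conditions had 2 replicates, which gave 6 non-treated, 4 5FdUR and 4 RTX libraries. The K562 line, from a chronic myelogenous leukemia, was represented by 1 library of non-treated wild type cells (K562_WT). The files hold genomic DNA only, so neither line could be checked against expressed markers.

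Protocadherins of these clusters are cadherin-type adhesion proteins of the cell surface that bind their own kind on neighbouring cells, and they are best known for giving single neurons an identity that lets them avoid their own branches. An alpha or gamma gene has a large variable first exon with a promoter of its own, spliced to short constant exons that all members of the cluster share. A beta gene is a single exon. A neuron uses a small choice of the promoters, which is made with the DNA-binding protein CTCF and the cohesin ring, whereas in most other tissues the variable exons are little used.

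In GRCh38, the alpha span ran from 140786136 to 141012347 on chromosome 5 (226 kb), the beta span from 141051374 to 141249365 (198 kb) and the gamma span from 141330514 to 141512977 (182 kb), all on the plus strand. The GC content was 40.1% in the alpha span, 40.2% in the beta span and 45.0% in the gamma span. Because alpha and gamma gene bodies are nested and end together, their gene-body values are not independent of each other. The first exon is the stretch that belongs to 1 member, and in the beta genes it is the whole gene. The first exons together were 56.7% GC in the alpha, 47.0% in the beta and 54.1% in the gamma cluster, against 36.7%, 36.9% and 40.8% in the rest of the same spans. The coverage behind the regions had been smoothed over 5000 bp, which is longer than most of these exons, so a region can reach past the exon that lies under it. Of the 100-base words of a first exon, 0% to 27.4% (PCDHB8) also occurred elsewhere in the genome, and ambiguously mapped reads had been removed.

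The thresholds bear on every value that follows. The lowest log2 value was 0.25 to 0.33 in the non-treated libraries and 0.25 to 0.27 in the RTX libraries. Among the 5FdUR libraries it was 0.25 in 5FdUR_UGI replicate 1 and 0.14 in replicate 2, and 0.20 and 0.13 in the 5FdUR_UGI_MMR replicates. Regions covered 10.9% to 11.3% of the known genome in the non-treated, 17.1% to 17.8% in the 5FdUR and 17.2% to 18.9% in the RTX libraries. The authors had tuned the thresholds to reach about equal total lengths. 5FdUR_UGI replicate 1 stood apart from the other 5FdUR libraries inside the locus, with 0.133% of the alpha, 0% of the beta and 1.04% of the gamma span covered, although it had 69.9% of the 500 kb downstream of the locus inside regions. Results for 5FdUR are therefore given with and without it where it moves them.

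Without drug, regions lay in the alpha and beta clusters and hardly in the gamma cluster. The alpha span was covered to 14.1% ± 2.06 (SD, n = 6) in the non-treated libraries, with a lowest value of 12.2%, a median of 13.5% and a highest of 16.8%. The beta span had 13.01% ± 4.32 (SD, n = 6), from 8.94% through a median of 11.4% to 21.2%. The gamma span had only 1.38% ± 1.29 (SD, n = 6), between 0.219% and 3.34%, and its highest value was below the lowest of the other spans. The K562 library gave the same order, with 14.5%, 8.18% and 0.11%. Beside these values, bins of 100 kb elsewhere in the genome within 1 point of the same GC content had a median covered share over the non-treated libraries of 3.82% for the alpha, 3.72% for the beta and 0.267% for the gamma GC content. The alpha value was at or above that of 97.9% of such bins, the beta value at or above 97.2% and the gamma value at or above 79.0%. The spans are longer than these bins, so the ranks are not matched on length.

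**Figure D1:**
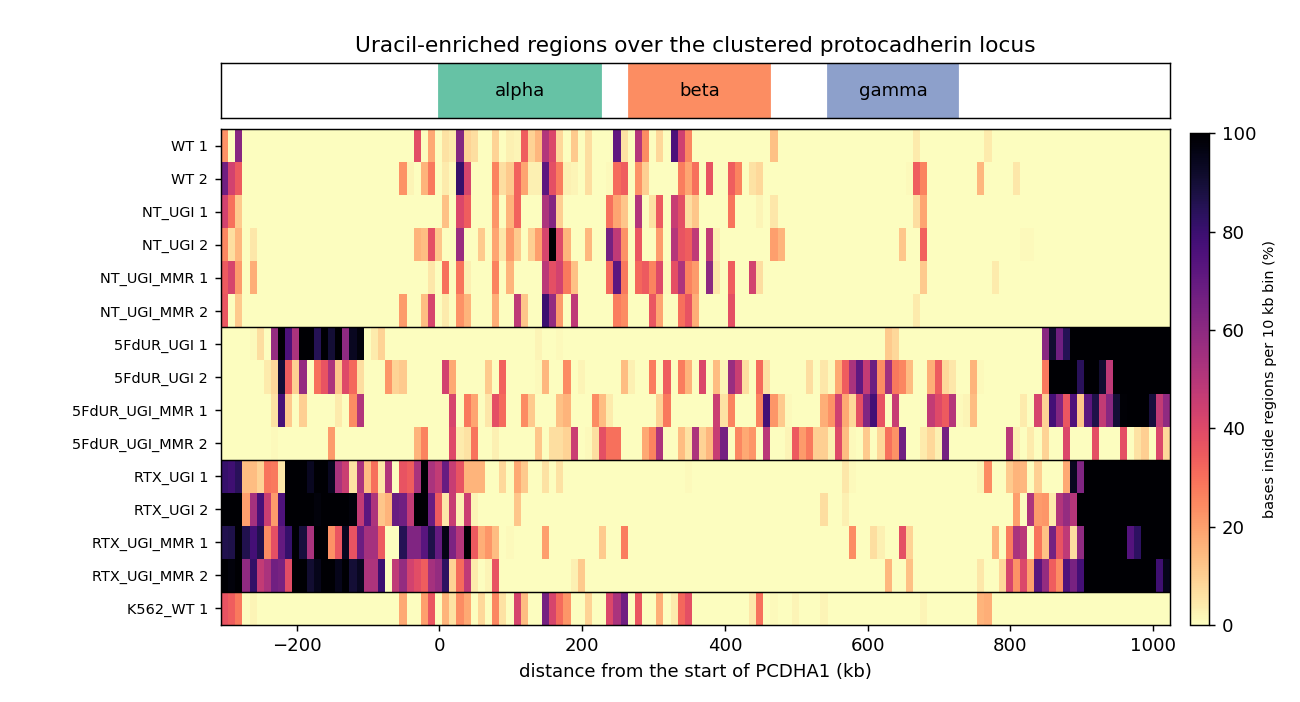
Share of bases inside regions in bins of 10 kb, for the 15 libraries (rows) against the distance from the start of PCDHA1 in kb. The non-treated and K562 libraries have more of the alpha and beta than of the gamma cluster covered. The RTX libraries have the upstream flank and the far part of the downstream flank densely covered. They are sparse from the later alpha members to past the gamma cluster, with the beta cluster nearly empty. In 3 of 4 5FdUR libraries there are regions in all 3 clusters as well as in the downstream flank.

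With drug, the 3 spans changed in different ways. Both drugs are set against the same 6 non-treated libraries, so their comparisons are not independent. In the alpha span the 5FdUR libraries had 0.133%, 6.50%, 11.7% and 7.52%, all below every non-treated library. The mean difference was -7.60 points (exact permutation test over 210 splits, two-sided p = 0.00476, the smallest it can give; 0.0286 after Benjamini-Hochberg adjustment over 12 span tests), and without 5FdUR_UGI replicate 1 it was -5.49 points. The RTX libraries had 11.9%, 5.00%, 20.7% and 11.8% of the alpha span covered, which overlapped the non-treated values (difference -1.72 points, exact permutation p = 0.529).

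In the beta span the RTX libraries were almost empty: 0.0505% in RTX_UGI replicate 1, from 1 region of 100 bp, and 0% in the other 3. Every RTX library thus lay below every non-treated library, and the difference was -13.0 points (exact permutation p = 0.00476; adjusted 0.0286). The 5FdUR libraries spread over the same range as the non-treated ones, with 0%, 15.7%, 11.01% and 21.0%, and the difference of -1.10 points did not pass the test (exact permutation p = 0.824). Without 5FdUR_UGI replicate 1 it was 2.87 points.

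In the gamma span the 5FdUR libraries had the higher values. The 5FdUR libraries had 1.04%, 27.5%, 28.9% and 15.2%, so that 3 of 4 exceeded the highest non-treated library. The mean of 18.2% ± 12.97 (SD, n = 4) was 16.8 points above the non-treated mean (exact permutation p = 0.0190; 0.0762 after adjustment over the 12 span tests, which does not pass). The RTX libraries had 0.329%, 0.164%, 4.44% and 1.53%, a mean 0.237 points above the non-treated libraries (exact permutation p = 0.824). The threshold limits the 5FdUR result: when only regions with a log2 value of at least 0.34 were kept in every library, its difference was 0.00913 points.

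Taking both drugs as 1 class, no span passed the test. The difference of 8 drug-treated against 6 non-treated libraries was -4.66 points for alpha (exact permutation p = 0.1002), -7.05 points for beta (p = 0.0922) and 8.51 points for gamma (p = 0.129), over 3003 splits. RTX minus 5FdUR was 5.88 points for alpha (exact permutation p = 0.229), -11.9 points for beta (p = 0.143) and -16.5 points for gamma (p = 0.0857), where 4 against 4 libraries cannot give less than 0.0286. Without 5FdUR_UGI replicate 1 the beta difference was -15.9 points and the gamma difference -22.2 points (exact permutation p = 0.0286 for each, the smallest that 4 against 3 libraries allow). That library was left out after its low values in these spans were seen, which favours a small p, so no conclusion is drawn from this p. With every library kept and only regions with a log2 value of at least 0.27, the beta and gamma differences were -2.39 and -5.81 points. At a limit of 0.34 they were -0.568 and -0.151 points, and none of these passed.

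**Figure D2:**
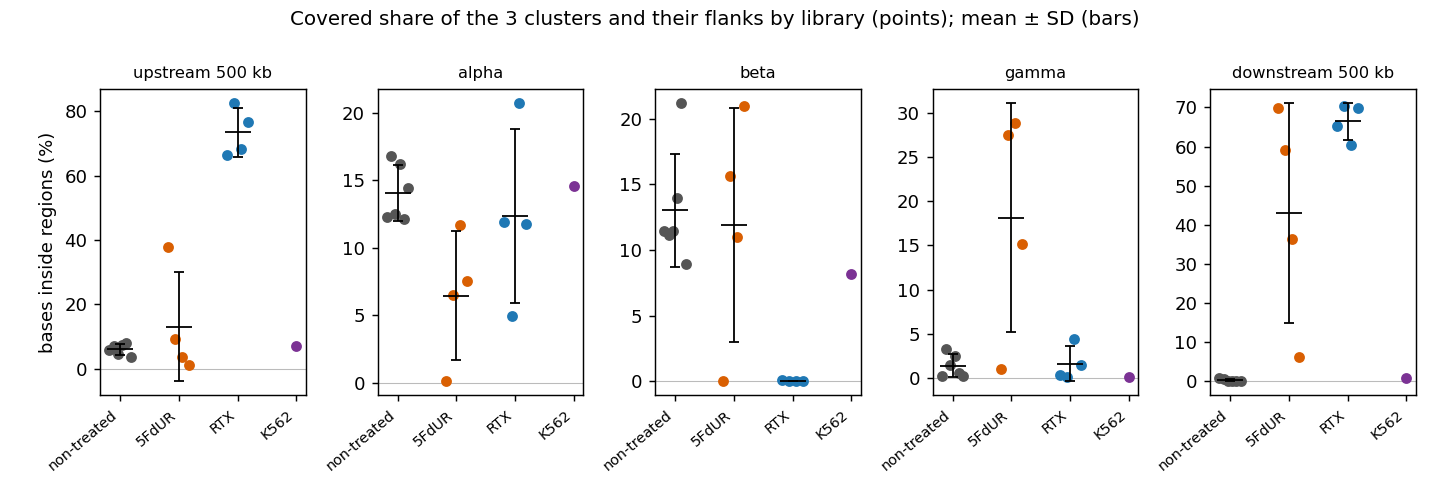
Percent of bases inside regions in the 500 kb before the locus, the alpha, beta and gamma spans and the 500 kb after it, each with its own axis. Points are libraries and bars are means with SD; the RTX libraries are at 66.3% or more before the locus and at 0.0505% or less in the beta span, and the 5FdUR libraries are the only class above 5% in the gamma span.

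The emptiness of the beta cluster under RTX lay within a longer sparse stretch, between flanks that were densely covered as 500 kb averages. Between 140880001 and 141580000 no 10 kb bin exceeded 38% in any RTX library. The stretch between the beta and gamma clusters had 0%, 0.863%, 0% and 0% with RTX. The first bin past the gamma cluster that was covered whole in all 4 RTX libraries began at 141690001. The 500 kb upstream of PCDHA1 were covered to 66.3%, 82.7%, 68.2% and 76.7% in the RTX libraries, against 37.9%, 9.32%, 3.66% and 1.28% in the 5FdUR libraries and 3.70% to 7.88% without drug. The 500 kb downstream of the gamma cluster had 65.3%, 70.5%, 60.3% and 69.8% with RTX, 69.9%, 59.2%, 36.4% and 6.20% with 5FdUR, and 0% to 0.78% without drug. The longest stretch with no region in any of the 4 RTX libraries within 300 kb of the locus was 193 kb, from 141133401 to 141326300. It held 12 first exons, those of PCDHB5 to PCDHB16, and the genes SLC25A2, a mitochondrial ornithine carrier, and TAF7, a subunit of the general transcription factor TFIID. The gene-free stretch between the alpha and beta clusters (39.0 kb) was covered to 13.1% to 35.1% without drug, 0% in 3 RTX libraries and 6.92% in RTX_UGI_MMR replicate 1, and 0%, 3.59%, 1.02% and 25.1% with 5FdUR. In 100 kb bins of the GC content of the beta span the RTX median was 0.5%, with 43.7% of bins at or below the beta value. Nearly empty bins of this composition were thus common with RTX. The spans are longer than a bin, so such ranks do not show how common an empty stretch of the length of the span was. The gamma mean with RTX (1.62%) lay below the median of 15% of bins of its GC content, with 36.3% of bins at or below it.

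ZMAT2, a zinc finger protein of the spliceosome 5′ of PCDHA1, had a gene-body covered share of 0% in the 6 non-treated libraries, 0% to 1.07% with 5FdUR and 6.24% to 88.5% with RTX. DIAPH1, a formin that builds actin filaments, lies just past the gamma cluster and had 0% to 1.92%, 0% to 5.38% and 6.54% to 13.9%. The DIAPH1 difference of drug-treated and non-treated means was 5.74 points and passed the test over all genes (permutation test with Benjamini-Hochberg adjustment, adjusted p = 0.0417), and that of ZMAT2, 18.02 points, did not (adjusted p = 0.252). Between the beta and gamma clusters, SLC25A2 had 0% in every non-treated and RTX library and 0% to 40% with 5FdUR (permutation test, adjusted p = 0.520). TAF7 had 0% to 2.66% without drug, 0% to 15.8% with 5FdUR and 0% with RTX (permutation test, adjusted p = 0.713).

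Within the spans, regions of the non-treated cells avoided the first exons. In the alpha cluster, first exons were covered to 0.0862% ± 0.211 and the rest of the span to 16.9% ± 2.46 (SD, n = 6), and the exons were below the rest in 6 of 6 libraries. The beta exons had 1.29% ± 1.59 against 18.8% ± 5.88 in the rest, again lower in 6 of 6 libraries. The gamma exons had no covered base in any non-treated library, against 2.01% ± 1.88 in the rest. The K562 library followed, with 0.486%, 0% and 0% in the exons of the 3 clusters and 17.4%, 12.2% and 0.16% in the rest. The covered bases were AT-rich: their GC content averaged 33.6% ± 0.618 in the alpha and 33.5% ± 0.266 in the beta span (SD, n = 6).

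With 5FdUR a larger share of the first exons than of the rest lay inside regions in most libraries, and with RTX this held in the alpha cluster. The rest is longer than the exons, so these shares do not compare numbers of covered bases. With 5FdUR, the alpha exons were covered to 0.517%, 22.8%, 20.5% and 10.1%, against 0.0533%, 3.14%, 9.91% and 6.98% of the rest, the exons being higher in 4 of 4 libraries. The beta exons had 0%, 26.4%, 18.9% and 29.1% against 0%, 10.4%, 7.15% and 16.98%, higher in 3 libraries and equal at 0% in 5FdUR_UGI replicate 1. The gamma exons had 2.84%, 43.3%, 42.5% and 15.5% against 0.220%, 20.3%, 22.7% and 15.02%, higher in 4 of 4. With RTX the alpha exons were covered to 11.5%, 11.98%, 37.96% and 16.9% against 11.96%, 3.56%, 17.2% and 10.7% of the rest, higher in 3 of 4 libraries. The beta exons were at 0% in all 4 RTX libraries and the gamma exons between 0% and 4.29%, below the rest in 3 of 4. The covered bases of the 5FdUR libraries had a GC content of 48.7% ± 7.10 in the alpha (n = 4), 45.6% ± 1.92 in the beta (n = 3) and 48.2% ± 3.201 in the gamma span (n = 4), and those of the RTX libraries 40.3% ± 1.67 in the alpha span (SD, n = 4). Of these, 5FdUR_UGI replicate 1 gave 58.7% in the alpha span from 300 covered bp and 53% in the gamma span from 1900 bp. The other 5FdUR libraries had 47.8%, 46.2% and 42.0% in the alpha span. In the gamma span they had 46.2%, 46.9% and 46.8%. These shares are descriptions; GC content and position in an exon cannot be told apart in them.

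Sequence windows of drug-covered first exons are shown. Their base composition is that of the window and not of the whole exon. For 5FdUR in each cluster and for RTX in the alpha cluster, the 300-base window inside the coding part of a first exon that was covered in the most libraries was taken, from the plus strand of GRCh38 in lower case. The window of PCDHA2 (chr5:140796901-140797200) lay inside regions of 3 RTX libraries, with region log2 values of 0.366 to 0.458, and of 5FdUR_UGI replicate 2, and has 67% GC and 31 CpG. The window of PCDHA3 (chr5:140802801-140803100) lay inside regions of 3 5FdUR libraries, with 0.193 to 0.318, and of RTX_UGI_MMR replicate 1, and has 67.7% GC and 37 CpG. The window of PCDHB15 (chr5:141247401-141247700) lay inside regions of 3 5FdUR libraries with values of 0.154 to 0.337, and has 68% GC and 28 CpG. The window of PCDHGA7 (chr5:141383101-141383400) was covered in the same 3 5FdUR libraries, with 0.153 to 0.337, and has 48.3% GC and 16 CpG. The whole first exons of PCDHA2, PCDHA3, PCDHB15 and PCDHGA7 have 56.6%, 55.4%, 47.9% and 53.8% GC.
PCDHA2, RTX: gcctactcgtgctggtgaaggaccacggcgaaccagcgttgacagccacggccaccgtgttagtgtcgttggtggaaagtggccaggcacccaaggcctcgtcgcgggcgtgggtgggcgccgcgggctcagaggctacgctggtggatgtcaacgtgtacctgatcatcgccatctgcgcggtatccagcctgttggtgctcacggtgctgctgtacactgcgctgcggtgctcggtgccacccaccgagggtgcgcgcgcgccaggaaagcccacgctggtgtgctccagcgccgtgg
PCDHA3, 5FdUR: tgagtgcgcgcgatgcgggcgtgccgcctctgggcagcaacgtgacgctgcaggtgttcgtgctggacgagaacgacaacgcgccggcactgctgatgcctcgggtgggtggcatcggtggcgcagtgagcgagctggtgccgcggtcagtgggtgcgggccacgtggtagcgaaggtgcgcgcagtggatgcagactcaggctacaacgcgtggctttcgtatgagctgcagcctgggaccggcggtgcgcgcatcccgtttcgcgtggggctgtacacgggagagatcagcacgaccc
PCDHB15, 5FdUR: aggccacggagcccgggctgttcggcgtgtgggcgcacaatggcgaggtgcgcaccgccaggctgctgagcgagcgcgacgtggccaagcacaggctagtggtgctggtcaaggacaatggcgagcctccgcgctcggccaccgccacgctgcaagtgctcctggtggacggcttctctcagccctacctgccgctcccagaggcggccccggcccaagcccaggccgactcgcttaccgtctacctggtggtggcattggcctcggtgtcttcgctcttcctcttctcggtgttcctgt
PCDHGA7, 5FdUR: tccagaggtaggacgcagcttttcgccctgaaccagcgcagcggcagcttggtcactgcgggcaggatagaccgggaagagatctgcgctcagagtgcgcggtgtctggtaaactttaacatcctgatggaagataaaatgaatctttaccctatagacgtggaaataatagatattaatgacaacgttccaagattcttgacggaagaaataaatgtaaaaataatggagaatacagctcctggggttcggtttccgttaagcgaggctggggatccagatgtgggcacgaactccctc

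Counted by member, 0 to 2 of 53 first exons (0% to 3.77%) had a covered base in a non-treated library, where 1.55% to 1.97% of the first exons of all protein-coding genes did. In the 5FdUR libraries 3, 33, 24 and 22 members did (5.66%, 62.3%, 45.3% and 41.5%), where 40.5%, 37.1%, 21.5% and 17.6% of all first exons did. The member share was above that of all genes in 3 of 4 libraries and below it in 5FdUR_UGI replicate 1. The first exons of the members had a median length of 2601 bp against 185 bp over all protein-coding genes, and a longer exon has more bases at which a region can be met, so the shares are not matched on length. In the RTX libraries 5, 2, 10 and 5 members did (9.43%, 3.77%, 18.9% and 9.43%), below the 33.3%, 39.9%, 22.4% and 26.6% of all first exons in each of the 4. For no member did the first exons of the 8 drug-treated libraries all lie above, or all below, those of the 6 non-treated libraries. Over all protein-coding genes with a covered first exon, 0.686% were higher and 0.356% lower in every drug-treated library, so a count of 0 of the 51 members with a covered base is near the background.

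Of the 13 alpha variable exons, which encode the extracellular cadherin repeats and the membrane-spanning part of the proteins, 1 had a covered base in a non-treated library, 7 in a 5FdUR and 9 in an RTX library. Their mean share was 0.101% ± 0.247 (n = 6), 13.5% ± 10.2 (n = 4) and 23.1% ± 14.7 (SD, n = 4), respectively. PCDHA3 had the highest mean over the 8 drug-treated libraries, 41.6%, with 0%, 48.7%, 100% and 100% with 5FdUR and 0%, 0%, 84.2% and 0% with RTX. PCDHA2 followed at 38.8%, with 0%, 98.0%, 0% and 0% with 5FdUR and 18.1%, 0%, 94.0% and 100% with RTX. Neither had a covered base without drug, and for neither did all libraries of a drug share the change. PCDHA1, the outermost member, was covered with RTX alone, to 41.7%, 0%, 100% and 100%. PCDHA13, in contrast, was the alpha member with a covered base without drug, 7.88% in WT replicate 2, and had 0% in all 8 drug-treated libraries. PCDHA4 was chosen after its values were seen, as the member with covered bases in all 4 RTX libraries (100%, 100%, 28.1% and 35.9%) and in none of the other 11. The RTX exons lay at the upstream end: PCDHA1, PCDHA2, PCDHA4 and PCDHA5 were those with a covered base in 3 or 4 RTX libraries, next to the densely covered flank.

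The alpha C-type exons of PCDHAC1 and PCDHAC2, members that neurons express without promoter choice, were at 0% in every non-treated and every RTX library. PCDHAC1 had 6.61% in 5FdUR_UGI replicate 1 and 0% in the other 3 5FdUR libraries. PCDHAC2 had 0%, 80.5%, 14.9% and 8.09% with 5FdUR. The intron that follows PCDHAC1, however, was one of the places covered without drug. From its start to that of PCDHAC2, the mean share was 36.6% in the non-treated and 2.79% in the drug-treated libraries, a difference of -33.8 points (permutation test with Benjamini-Hochberg adjustment, adjusted p = 0.00432).

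The 16 beta exons had a mean share of 1.43% ± 1.60 without drug (n = 6), 20.2% ± 14.2 with 5FdUR (n = 4) and 0% with RTX. A covered base was found in 2 of them without drug, in 16 in at least 1 5FdUR library and in none with RTX. PCDHB10 and PCDHB14 were those with regions without drug: PCDHB10 had 0%, 22.7%, 16.6%, 0%, 22.7% and 28.7%, and PCDHB14 had 46.6% in NT_UGI_MMR replicate 1 and 0% in the other 5. Of the words of the PCDHB10 exon, 24.97% also occurred elsewhere in the genome. PCDHB15 had the highest drug-treated mean, 21.3%, from 0%, 10.1%, 60.6% and 100% with 5FdUR. PCDHB3 followed at 20.0%, from 0%, 78.3%, 81.3% and 0%. The lowest were PCDHB12, with 1.84% in 1 library, and PCDHB1, with 3.76% in 1 library. PCDHB1 lies at the upstream end and its annotated exon of 7973 bp was the longest and the least rich in GC (39.96%) of the beta genes. PCDHB2, at 0% without drug, had 0%, 0%, 14.3% and 60.8% with 5FdUR.

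In the gamma cluster, the 12 gamma A exons had 30.1% ± 25.2 with 5FdUR (n = 4), the 7 gamma B exons 18.4% ± 12.5 and the 3 gamma C-type exons 27.4% ± 40.4 (SD), and all were at 0% in the 6 non-treated libraries. With RTX the A and C-type exons were at 0% and the B exons at 5.63% ± 6.54 (n = 4), from 3 members. The means of the 3 groups with 5FdUR lay within 1 SD of each other. PCDHGA7 had the highest drug-treated mean, 30.3%, with 0%, 100%, 100% and 42.6% in the 5FdUR libraries. PCDHGA8 followed at 22.3%, with 0%, 100%, 78.2% and 0%. PCDHGA2 had 0%, 0%, 100% and 60.5%. PCDHGA1 and PCDHGB1 had no covered base in the first exon in any library. Of the C-type members, PCDHGC3 had 0%, 17.3%, 100% and 0% with 5FdUR, PCDHGC4 0%, 0%, 62.5% and 0%, and PCDHGC5 0%, 7.63%, 100% and 42.0%. Of the 22 members, 3 were covered in 3 5FdUR libraries, 14 in 2, 3 in 1 and 2 in none, and no member in all 4, so the covered exons differed from library to library.

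The constant exons were hardly covered. The coding parts shared by all 15 alpha members were 59, 89 and 308 bp, and those shared by all 22 gamma members were 59, 89 and 224 bp. None was covered in a non-treated, RTX or K562 library. Of the alpha exons, the third had 43.5% in 5FdUR_UGI_MMR replicate 1. Of the gamma exons, the first was covered whole in 5FdUR_UGI_MMR replicate 2 and the second in replicate 1.

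By whole gene bodies, 12 of 53 members were called lower after drug and 0 higher (two-sided permutation test over libraries, Benjamini-Hochberg adjustment over 19278 genes, adjusted p of 0.05 or less). Over all genes tested, 8.68% were called lower and 34.9% higher. At an unadjusted p under 0.05, 13 members were lower and 0 higher. The 12 were PCDHA3 to PCDHA13 and PCDHAC1, which end at the same base and share most of their length, so that they count 1 stretch many times over. Their differences ran from -7.03 points in PCDHA3 (permutation test, adjusted p = 0.0264) to -15.5 points in PCDHAC1 (adjusted p = 0.00430). With each member given the stretch from its start to that of the next, 4 stretches were called lower and 1 higher. For a beta gene this stretch runs past its single exon into the DNA between genes. The lower ones were those of PCDHA13 (-9.06 points), PCDHAC1 (-33.8), PCDHB1 (-14.4) and PCDHB4 (-39.6), and the higher one that of PCDHA3 (32.6 points, from 0% to 32.6%, permutation test, adjusted p = 0.0417). The PCDHB1 and PCDHB4 genes themselves had 0% without drug and means of 0.470% and 7.83% with drug. The share lost in their stretches therefore lay outside the genes. The median difference was -9.22 points over the alpha, 6.90 over the beta and 8.16 over the gamma gene bodies, and 28.2 points over all genes tested. None of the 53 gene bodies separated RTX from 5FdUR libraries, with all 4 of a drug above or below all 4 of the other. Over 18928 genes, 24.7% were higher and 8.29% lower in every RTX library. The count of members hangs on 5FdUR_UGI replicate 1. For the PCDHGA1 gene body that library had 1.04%, and the other 5FdUR libraries had 27.5%, 28.9% and 15.2%. The RTX libraries had 0.329%, 0.164%, 4.44% and 1.53%. In the beta span the same library had 0%, as most RTX libraries did. Counts without it were not computed, for the members or for all genes.

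The log2 values show how far these calls rest on the thresholds. Non-treated regions reached 0.455 to 0.543 in the alpha span and 0.359 to 0.550 in the beta span. RTX regions of the alpha span reached 0.378 to 0.458. The highest 5FdUR regions of the alpha span, at 0.263, 0.222, 0.318 and 0.238, were below all of these. In the beta span they reached 0.283, 0.343 and 0.261, below every non-treated library, with no region in 5FdUR_UGI replicate 1. In the gamma span the 5FdUR values of 0.275, 0.319, 0.411 and 0.236 overlapped the 0.319 to 0.421 of the non-treated and the 0.259 to 0.355 of the RTX libraries. With only regions of at least 0.34, a limit above every library's threshold, the beta span was lower with 5FdUR too (difference -10.5 points, exact permutation p = 0.00476), and the RTX difference was -11.1 points. A limit of 0.27, the highest threshold of a drug-treated library, was chosen after seeing the data and evens out the drug-treated libraries alone, since 5 non-treated libraries had higher thresholds. With it, the mean share of the gamma first exons with 5FdUR was 12.1 points above the non-treated libraries, against 26 points with all regions. For the alpha first exons with 5FdUR the difference was 3.33 points, against 13.4 with all regions. For the beta first exons with 5FdUR it was 3.14 points, against 18.7. For the alpha first exons with RTX it was 19.3 points, against 19.9.

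**Figure D3:**
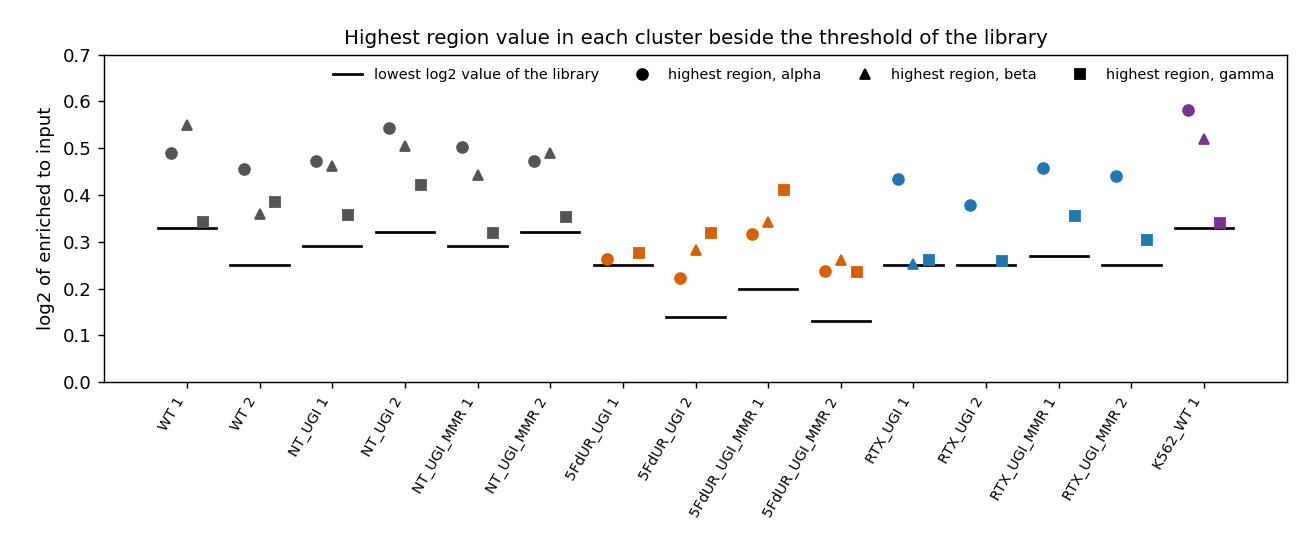
Highest log2 value of any region in the alpha (circles), beta (triangles) and gamma (squares) span of each library, beside the lowest log2 value of that library (black line). The black lines of 3 5FdUR libraries, 0.20 or lower, are under those of all other libraries, and no beta value exists in 4 drug-treated libraries.

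MMR status, UGI and cell line were compared by values alone, since 2 libraries against 2 cannot give an exact p below 0.333. Without drug, the beta span had 11.4% and 13.9% in NT_UGI, 21.2% and 8.94% in NT_UGI_MMR, and 11.5% and 11.1% in WT cells without UGI, and the ranges overlapped. The gamma span had 1.42% and 2.47% in NT_UGI, above the 0.603% and 0.219% in NT_UGI_MMR. The WT cells, which also lack MMR, had 0.219% and 3.34%, a range that holds the values of both. With 5FdUR, the alpha span had 0.133% and 6.50% in 5FdUR_UGI, below the 11.7% and 7.52% in 5FdUR_UGI_MMR. The beta and gamma ranges of these conditions overlapped. With RTX, the gamma span had 0.329% and 0.164% in RTX_UGI, below the 4.44% and 1.53% in RTX_UGI_MMR. The alpha ranges, 5.00% to 11.9% and 11.8% to 20.7%, overlapped.

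Promoters are where member choice is made, so their sequence is given for an RTX-covered and an uncovered member. RefSeq promoter sequences, 250 bases before to 50 bases after the start on GRCh38.p14, were held for 47 of 53 members in 52 entries. The letters CGCT, the core of a sequence element known from these promoters, occurred on either strand in 51 of 52 entries (98.1%) and in 70.01% of 35116 promoters of all genes. The PCDHA4 promoter (chr5:140806818-140807117) holds it 1 time at 40.3% GC, and was covered whole in 2 RTX libraries and to 39.0% in 1. The PCDHAC1 promoter (chr5:140926049-140926348) is 66% GC, holds the letters 3 times on each strand, and had 0% in all 15 libraries. Capitals mark CGCT, and AGCG for the other strand. A match is a description of letters and not of binding.
PCDHA4: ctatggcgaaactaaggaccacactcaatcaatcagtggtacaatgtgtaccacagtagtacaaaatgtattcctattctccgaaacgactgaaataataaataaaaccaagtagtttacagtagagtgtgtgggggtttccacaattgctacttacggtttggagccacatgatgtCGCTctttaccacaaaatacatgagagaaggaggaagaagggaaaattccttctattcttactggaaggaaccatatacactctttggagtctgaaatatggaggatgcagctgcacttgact
PCDHAC1: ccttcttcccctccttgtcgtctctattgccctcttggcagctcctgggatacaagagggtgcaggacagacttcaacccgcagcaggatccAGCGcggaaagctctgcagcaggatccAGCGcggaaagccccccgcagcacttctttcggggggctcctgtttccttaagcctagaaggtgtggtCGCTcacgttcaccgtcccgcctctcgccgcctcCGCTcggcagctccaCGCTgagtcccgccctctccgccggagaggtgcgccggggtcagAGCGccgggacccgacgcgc

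Genes that act on or below the protocadherins lie elsewhere and were read by gene body. Of 11 genes of promoter choice and chromatin, 4 were called higher after drug (SETDB1, WAPL, DNMT3B and SMC1A) and 3 lower (STAG1, NIPBL and RAD21), where 34.9% of all genes were called higher and 8.68% lower. The median difference was 36.0 points, against 28.2 over all genes. CTCF, the insulator protein, had 0% without drug and means of 1.73% with 5FdUR and 80.3% with RTX (difference 41.0 points, permutation test, adjusted p = 0.0752). SMCHD1, a chromatin silencer of these clusters, had 15.8% ± 3.84 without drug (n = 6), 13.3% with 5FdUR and 77.6% with RTX (difference 29.6 points, adjusted p = 0.118, Benjamini-Hochberg, permutation test). Of 10 genes of the signalling below the receptors, 3 were called higher (CYFIP2, FYN and PTK2B) and 0 lower, also at an unadjusted p under 0.05, a share of higher calls near that of all genes. The median difference was 6.97 points, below the 28.2 over all genes. FYN, a kinase of the Src family, had 0.571% without drug, 23.6% with 5FdUR and 39.97% with RTX (difference 31.2 points, permutation test, adjusted p = 0.0101).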

How the data were processed

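The authors aligned reads to GRCh38 with BWA 0.7.17-r1194, used SAMtools 1.9-50 and Picard, left out reads of ambiguous position and blacklisted stretches, and used deepTools 3.2.1 to make genome-scaled coverage in bins of 100 bp, smoothed over 5000 bp. The deposited regions hold the log2 of enriched over input coverage, above a threshold tuned per file. Of 32 samples, 15 single-library region files were used, and 7 files of merged replicates served as an alternative. Depth is not recorded in them, so no counting interval is given, and which library was run on which instrument is not given in the sources used here. An uncovered base may also be one that was blacklisted.

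Covered shares were computed with Python 3.11.15 and NumPy 2.4.6 on GENCODE 44 genes. Differences of class means were tested by two-sided exact permutation over libraries, which were biological replicates, and adjusted (Benjamini-Hochberg, 0.05) over all 19278 genes with a covered base. Single members named are the 2 highest and 2 lowest first exons per cluster and class, plus PCDHB1 and the C-type members. Others were chosen after their values were seen. Some sequence windows are not reported here. The test per gene was run on simulated shares with independent noise of the spread of the non-treated libraries. That simulation does not cover nested genes or the wider spread of the drug-treated libraries. Members and lists were chosen with earlier results of these data known. Alternatives comprised region length, log2 limits, equal total length, merged files, condition means, bases called in both replicates, left-out libraries, UGI-expressing libraries only and the replicate number as a block.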

Additional observations from a re-analysis of the deposited data

Results flagged for a closer look

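One value was singled out by a rule for outliers. In the beta span, RTX_UGI replicate 1 had 0.0505% of bases covered while the other 3 RTX libraries had 0%. The value comes from 1 region of 100 bp with a log2 of 0.25, at the threshold of that library. The rule sets the gap to the nearest value against the range of the group. With the other 3 libraries tied at 0%, any covered base at all would have been singled out, so the flag carries no information. Of 9 groups of 4 to 6 libraries examined in this way 1 was singled out. The usual rate of about 1 in 20 by chance does not hold for tied values.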

How the results depend on the processing

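Here a difference passed where its unadjusted exact permutation p was 0.05 or less. The fall of the beta span with RTX kept its direction under every alternative run and passed the test in all that had single libraries as units, except for the first exons alone (-1.43 points). With 1 value per condition no test of 2 against 3 can go below 0.1, and the differences were -12.4 points from merged files, -13.0 from condition means and -6.04 from bases called in both replicates. For the fall of the alpha span with 5FdUR the same settings gave -11.6, -7.60 and -6.03 points, regions of at least 5 kb gave -4.36 (no longer passing) and the first exons alone 13.4, the opposite direction. The gamma span difference of 5FdUR, which passed only before adjustment over the span tests, did not pass at a log2 of at least 0.34 (0.00913 points) or 0.27 (5.82), from merged files (9.85), condition means (16.8), bases in both replicates (1.72) or UGI-expressing libraries only (16.98).

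With both drugs as 1 class, the alpha difference passed at log2 limits of 0.34 (-8.65) and 0.27 (-7.34), at 300 Mb of regions per library (-11.3) and as a ratio to the genome share (-0.735), and was 16.7 points in first exons. The beta difference passed with regions of at least 5 kb (-3.31), at 0.34 (-10.8), 0.27 (-11.8), 300 Mb (-10.5), in bases of both replicates (-5.40) and as a ratio (-0.833), and was 8.65 points in first exons. The gamma difference was -0.0662 at 0.34. RTX minus 5FdUR in the alpha span passed at 0.34 (7.40). RTX minus non-treated in the alpha span was 0.681 with regions of at least 5 kb and 19.9 in first exons, and passed at 300 Mb (-10.6) and as a ratio (-0.576). 5FdUR minus non-treated in the beta span passed at 0.34 (-10.5), 0.27 (-10.6) and 300 Mb (-8.46), and was 18.7 in first exons. RTX minus non-treated in the gamma span was -0.142 at 0.34, -1.18 at 300 Mb, -1.20 in merged files, -0.338 in both replicates, -0.0343 as a ratio and 1.79 in first exons.

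The mean share of alpha first exons with 5FdUR, minus non-treated, was 13.4 points and became 0.135 with regions of at least 5 kb, 0 at 0.34 and 2.57 at 300 Mb, and that with RTX became 5.26 at 300 Mb. For beta exons with 5FdUR it became 2.64 with regions of at least 5 kb, 0.0141 at 0.34, 3.14 at 0.27 and 2.56 in both replicates. For gamma exons with 5FdUR it became 1.85 at 0.34 and 3.47 in both replicates. The 12 genes called lower became 0 with regions of at least 5 kb and 4 by own stretch, which called 1 higher and for beta genes includes DNA outside the gene. With 1 value per condition (merged files, condition means or bases in both replicates) the count was 0, but the smallest adjusted p of any gene was then 0.178 to 0.287, so no gene could be called. By condition means 1 first exon, that of PCDHGB2, was higher in every drug condition. The share of all first exons was not computed for this setting, so it is not known whether that count exceeds the background. Over all genes, the 1674 lower and 6728 higher calls became 885 and 1775 with regions of at least 5 kb, 2032 and 497 at 0.34, 2227 and 3432 at 0.27, 2127 and 749 at 300 Mb, 1344 and 1809 with UGI-expressing libraries only, and 0 with 1 value per condition. The cause of the other changes was not tested.

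Leaving out 1 library gave, for drug-treated minus non-treated, -6.28 to -3.34 points (alpha, passing without RTX_UGI_MMR replicate 1), -9.20 to -5.41 (beta, passing without 5FdUR_UGI_MMR replicate 2) and 5.79 to 9.89 (gamma). For RTX minus 5FdUR it gave 3.09 to 8.33, -15.9 to -8.88 and -22.2 to -13.0. For 5FdUR minus non-treated it gave -9.35 to -5.49, -4.12 to 2.87 (above 0 without 5FdUR_UGI replicate 1 or, at 0.541, NT_UGI_MMR replicate 1) and 13.2 to 22.5. For RTX minus non-treated it gave -4.51 (passing without RTX_UGI_MMR replicate 1) to 0.729 (without RTX_UGI replicate 2), -13.8 to -11.4 and -0.703 (without RTX_UGI_MMR replicate 1) to 0.722. The genes called lower numbered 11 to 14.

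Replicate numbers did not pair the samples: over 21 pairs of conditions the difference of replicates 1 and 2 correlated at -0.142 to 0.0833. With the replicate number as a block, drug-treated minus non-treated was -4.66, -7.05 and 8.51 points for the 3 spans (exact permutation p = 0.109, 0.106 and 0.143), and 12 genes were called lower.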
